A study of Mus musculus with 12 samples.

Results

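The genes described here are the 7 members *Begain*, *Dlk1*, *Meg3*, *Rtl1*, *Rian*, *Mirg* and *Dio3* of the imprinted *Dlk1*-*Dio3* locus of mouse chromosome 12. They were taken by symbol from tables of 24480 genes, and all 7 were found and passed the filter on low counts in both mutant lines. *Dlk1* was chosen because its RNA was lower in *Sox2* mutants and in *Nr2f1* mutants, so its changes are given as a description with no test. The other 6 genes were chosen for their position beside it, and the question was whether their RNA changed too.

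Genomic imprinting means that a gene is expressed mainly from the copy inherited from a given parent. In this locus, *Dlk1*, *Rtl1* and *Dio3* encode proteins and are known to be expressed from the paternal chromosome, whereas *Meg3*, *Rian* and *Mirg* are long non-coding RNAs of the maternal chromosome. The maternal RNAs are host transcripts for small nucleolar RNAs and for a large cluster of microRNAs, and methylation of the intergenic control region between *Dlk1* and *Meg3* sets which side is used. *Begain*, at the edge of the domain, encodes a protein of the postsynaptic density. The RNA-seq counts do not separate the parental alleles, so that each value below is the sum over both.

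The RNA came from the dorsolateral geniculate nucleus (dLGN), the thalamic relay for vision, dissected from mice at postnatal day 0 (P0), and each of the 12 libraries was a pool of 3 animals. There were 4 groups of 3 libraries. *Sox2* mutants were Sox2flox/flox;Ror-alphaCre and were compared with controls labelled Sox2flox/flox or Sox2flox/+, without Cre. *Nr2f1* mutants were Nr2f1 flox/flox;Ror-alphaCre; their controls carry a label that names Ror-alphaCre and also no Cre, and per the study's methods they were littermates without the transgene, either Nr2f1 flox/flox or Nr2f1 flox/+. Cre was expressed from the *Rora* gene, so that deletion takes place in sensory thalamic neurons after their last division and not in every cell of the dissected tissue, and mutants carried a Cre insertion that controls lacked.

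Libraries held between 39293465 and 50095344 expected counts. The deleted genes were lower in their own mutants: *Sox2* went from 369 ± 11.7 to 139 ± 20.2 CPM (counts scaled to a common library size; mean ± SD, n = 3) in the *Sox2* line, and *Nr2f1* from 354 ± 37.5 to 119 ± 27.5 CPM in the *Nr2f1* line. *Sox2* was also downregulated in *Nr2f1* mutants, from a mean of 356 to 243 CPM (log2 fold change -0.55, edgeR FDR 0.00635). *Nr2f1* went from a mean of 332 to 254 CPM in *Sox2* mutants (-0.39, edgeR FDR 0.0559), where the groups overlapped and it was not called. The part of the lower *Sox2* RNA in the results of the *Nr2f1* line was not tested. All 8 markers of thalamic glutamatergic neurons were detected in both lines. In *Sox2* mutants 4 of these 8 were downregulated and 1 was upregulated, with a summed level of 1783 to 2341 CPM in controls and 1609.6 to 1648 CPM in mutants, while 5 of 6 astrocyte and radial glia markers and 5 of 6 microglia markers were upregulated. In *Nr2f1* mutants 1 of the 8 thalamic markers, 1 of the 6 astrocyte markers and 0 of the 6 microglia markers were upregulated, and none was downregulated. The summed astrocyte markers were 1373 to 1405 CPM in *Nr2f1* controls and 1467 to 1642 CPM in *Nr2f1* mutants. Microglia markers summed to 64.8 to 73.8 and 79.7 to 108 CPM, whereas thalamic sums overlapped (2205 to 2449 and 2065 to 2421 CPM). GABAergic markers summed to 134 to 186 CPM in *Sox2* controls and 215 to 275 CPM in *Sox2* mutants. Over all genes tested, 8.08% were called in *Sox2* and 2.54% in *Nr2f1* mutants. The 4 male-specific genes summed to 43.6 to 97.4 CPM in *Nr2f1* controls and to 0 to 52.1 CPM in *Nr2f1* mutants. *Xist*, the female marker, ranged from 0.29 to 484 CPM in *Nr2f1* controls and from 506 to 1150 CPM in *Nr2f1* mutants. In the *Sox2* line *Xist* ranged from 0.18 to 579 CPM in controls and from 0.45 to 307 CPM in mutants. Pools of both lines therefore differed in the sexes they held. The part of these differences in the results below was not tested, and in bulk tissue fewer cells of a type cannot be told apart from less RNA per cell.

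To see how abundant the RNA of each locus gene was in the newborn dLGN, levels were first compared per length, as CPM per kb of the longest annotated transcript. Counts rest on RefSeq transcripts and lengths on GENCODE, so that the order depends on both annotations. In controls the order was *Meg3*, *Rian*, *Begain*, *Dlk1*, *Mirg*, *Rtl1* and *Dio3*, and this order was found in each of the 6 control libraries. The maternal RNAs *Meg3* and *Rian* led, with control means of 191 and 108 CPM per kb in the *Sox2* line and 205 and 109.9 in the *Nr2f1* line. *Begain* stood at 50.7 and 47.7 CPM per kb, *Dlk1* at 20.5 and 17.4, and *Mirg* at 4.99 and 4.55. The lowest levels were those of *Rtl1*, at 1.38 and 1.44 CPM per kb, and of *Dio3*, at 0.495 and 0.497.

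The same order was kept in the mutants, except that *Mirg* stood above *Dlk1* in 1 of the 3 *Nr2f1* mutant libraries (MUT_B). Per kb, *Dlk1* ranged from 4.56 to 5.95 CPM and *Mirg* from 4.17 to 5.07 CPM in *Nr2f1* mutants, so that these neighbours in the order overlapped. In *Sox2* mutants the corresponding ranges were 7.21 to 10.4 CPM per kb for *Dlk1* and 5.25 to 6.43 for *Mirg*, with no overlap.

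**Figure D1:**
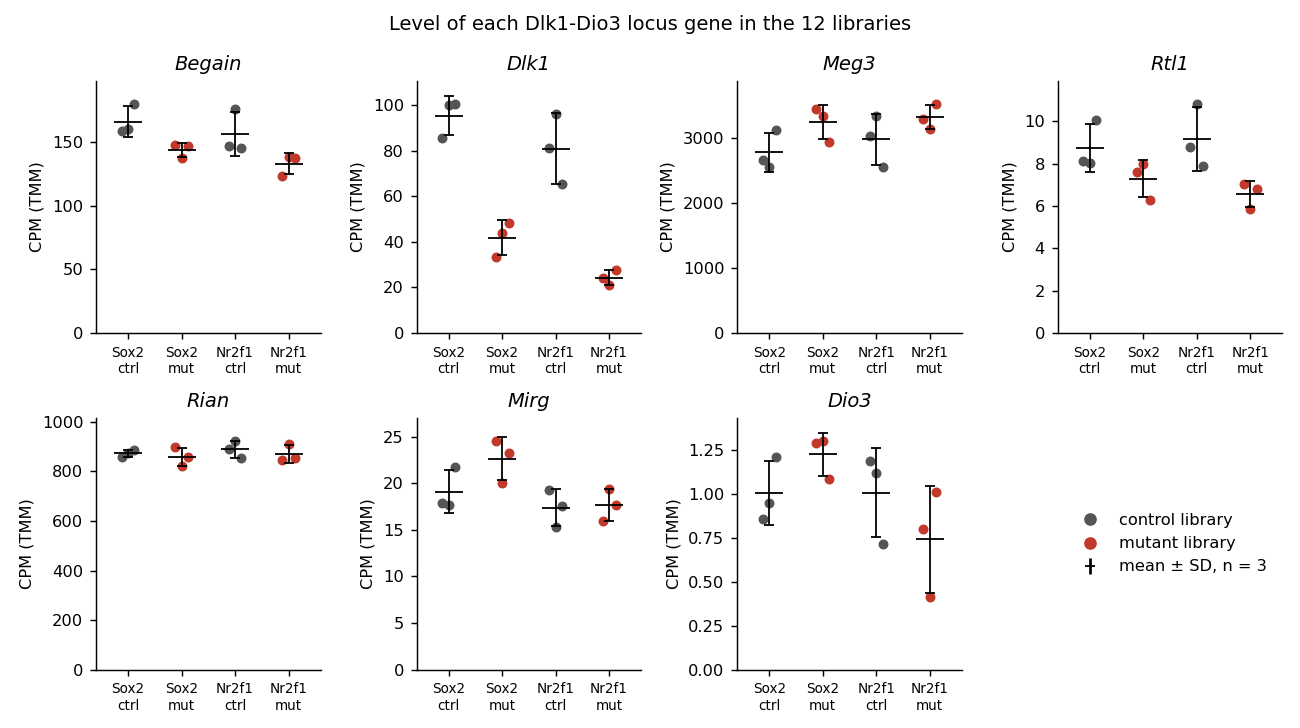
Level of each locus gene (CPM after TMM scaling, y axis from 0) in the 12 libraries, with controls in grey and mutants in red, and the mean ± SD of each group of 3. *Dlk1* lay between 65.4 and 101 CPM in controls and between 21.2 and 48.4 CPM in mutants, whereas *Rian* stayed between 824 and 924 CPM in all 12 libraries.

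*Dlk1* (chr12:109452485-109463336, plus strand, GRCm38) encodes a transmembrane protein with EGF-like repeats that resembles the Delta ligands of Notch. In the *Sox2* line, *Dlk1* measured 85.5, 99.98 and 101 CPM in control libraries CTRL_1, CTRL_2 and CTRL_3, and 33.5, 43.7 and 48.4 CPM in mutant libraries MUT_1, MUT_3 and MUT_4. For the *Nr2f1* line the values were 81.2, 96.2 and 65.4 CPM in CTRL_B, CTRL_D and CTRL_E, and 24.05, 21.2 and 27.7 CPM in MUT_A, MUT_B and MUT_C. Every mutant library was below every control library of both lines, a pattern that 18.9% of all genes showed within the *Sox2* line and 14.3% within the *Nr2f1* line and from which nothing is read here, since *Dlk1* was chosen for it.

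The mutant mean of *Dlk1* was 43.9% (*Sox2*) and 30.0% (*Nr2f1*) of the control mean. These are log2 fold changes of -1.19 (SE 0.13) and -1.73 (SE 0.14), which ranked 165th and 19th from the lowest among the genes tested in each line. Since these values chose the gene, no test is attached to them, nor to the difference between the lines of 0.56 on the log2 scale.

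Of the 6 neighbours of *Dlk1*, 0 were called in *Sox2* mutants and 0 in *Nr2f1* mutants by edgeR (quasi-likelihood F-test, FDR<0.01 over all genes tested). At this threshold 8.08% of 15602 genes were called in *Sox2* mutants, 4.19% down and 3.9% up. Of 15600 genes 2.54% were called in *Nr2f1* mutants, 1.32% down and 1.22% up. DESeq2 also called 0 of the 6 in each line. At an unadjusted p under 0.05 there were 2 of 6 in the *Sox2* line (*Begain* and *Meg3*) and 2 of 6 in the *Nr2f1* line (*Begain* and *Rtl1*), where 35% and 24.6% of all genes passed. For 2 of 6 in each line, *Begain* and *Rtl1*, all mutants lay below all controls. Of all genes, 37.9% separated in either direction in *Sox2* mutants (18.9% below, 19% above) and 28.6% in *Nr2f1* mutants (14.3% below, 14.4% above). Both separated neighbours lay below controls, for which the shares of 18.9% and 14.3% are the matching ones. With only 6 neighbours, nothing is read from this count. With 3 libraries against 3, an exact permutation test of a single gene cannot go below a two-sided p of 0.1.

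**Figure D2:**
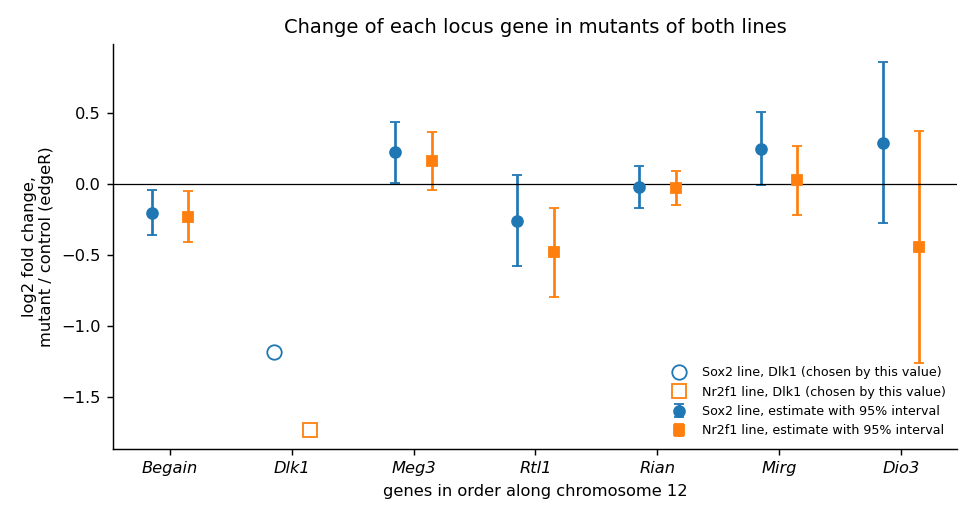
Log2 fold change of each locus gene in mutants against controls (edgeR), in order along the chromosome, for the *Sox2* line (blue circles) and the *Nr2f1* line (orange squares). Bars are 95% intervals, and the open symbols of *Dlk1* have none because the gene was chosen by these values; it stood at -1.19 and -1.73, while the 6 neighbours lay between -0.48 and 0.29.

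Among the paternally expressed genes, *Rtl1* (chr12:109564900-109604418, minus strand), a retrotransposon-derived gene essential in placenta and muscle, was the neighbour with the lowest fold change. In the *Sox2* line it measured 8.15, 8.03 and 10.1 CPM in controls and 7.61, 7.98 and 6.29 CPM in mutants. The *Nr2f1* line held 8.79, 10.8 and 7.91 CPM in controls and 7.05, 5.87 and 6.79 CPM in mutants. All mutant libraries lay below all controls in both lines, in the *Sox2* line by a narrow gap between 7.98 and 8.03 CPM.

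The log2 fold change of *Rtl1* was -0.26 (95% interval -0.58 to 0.06, FDR 0.224) in the *Sox2* line and -0.48 (-0.80 to -0.17, FDR 0.0681) in the *Nr2f1* line, neither of which passed. *Rtl1* rests on 271 to 532 counts per library. Because *Rtl1* lies opposite to the maternal RNAs and the sources do not state whether counting used the strand, reads of *Rtl1* and of the RNA antisense to it cannot be told apart. A row for that side, *6430411K18Rik*, lies inside *Rtl1* on the reference and held 30.3 to 100.3 counts per library, with log2 fold changes of -0.05 (FDR 0.929) and -0.07 (FDR 0.900).

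*Dio3* (chr12:110279230-110281097, plus strand) encodes the type 3 deiodinase, which inactivates thyroid hormone, and lies at the far end of the locus. It was the weakest member. Controls of the *Sox2* line had 0.86, 0.95 and 1.21 CPM and mutants 1.29, 1.30 and 1.08 CPM, and in the *Nr2f1* line controls had 1.19, 1.12 and 0.72 CPM and mutants 0.80, 0.41 and 1.01 CPM. The groups overlapped in both lines. The log2 fold changes were 0.29 (95% interval -0.28 to 0.85, FDR 0.454) and -0.44 (-1.26 to 0.37, FDR 0.502). In the *Nr2f1* line the interval still held a fall of more than 1 on the log2 scale, and in the *Sox2* line it did not. *Dio3* rests on 19 to 57 counts per library.

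*Begain* (chr12:109032181-109068242, minus strand) lies on the other side of *Dlk1*. It measured 158, 159.9 and 179.8 CPM in *Sox2* controls and 148, 138 and 146 CPM in *Sox2* mutants. *Nr2f1* controls held 147, 176 and 145 CPM and *Nr2f1* mutants 123, 138 and 137 CPM. Mutants were below controls in every library of both lines, by a small amount: the mutant mean was 86.8% and 85.2% of the control mean.

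For *Begain*, the log2 fold changes were -0.20 (95% interval -0.36 to -0.05, FDR 0.0708) and -0.23 (-0.41 to -0.05, FDR 0.113), and neither passed the threshold.

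Among the maternal RNAs, *Meg3* (chr12:109540996-109571729, plus strand) was the most abundant locus RNA. *Sox2* controls held 2659, 2556 and 3119 CPM and *Sox2* mutants 3444, 3329 and 2942 CPM. *Nr2f1* controls held 3033, 3339.96 and 2556 CPM and *Nr2f1* mutants 3296, 3143 and 3521 CPM. Of the 3 mutants, 2 (*Sox2*) and 1 (*Nr2f1*) stood above the highest control, and the groups overlapped in both lines.

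The log2 fold change of *Meg3* was 0.22 (95% interval 0.01 to 0.43, FDR 0.129) in *Sox2* mutants and 0.16 (-0.05 to 0.36, FDR 0.325) in *Nr2f1* mutants. Leaving out the control library CTRL_3, the highest of its group, gave 0.32 with an FDR of 0.00692 in the *Sox2* line, so that the outcome for *Meg3* depends on that library. Over all genes, the same omission raised the calls from 1261 to 2161. No other alternative or omitted library called a neighbour of *Dlk1* in either line.

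The promoter of *Meg3* is shown for its cAMP response element, the palindrome TGACGTCA, which lies near the start site in the RefSeq sequence (GRCm38.p6, chr12:109540928-109540957, plus strand). Capitals mark the element, and 49 bases lie between it and the annotated start.
Meg3 promoter site: gcagaatgcgcTGACGTCAaagaccacccc
This element was found, on either strand, in 1.79% of 32851 RefSeq windows from 250 bases before to 50 bases after a start site. Windows were given for 6 of the 7 members, 11 in all, with none for *Rtl1*. Several of the 11 belong to *Begain*, some of them overlapping, so that they are not 11 independent promoters. The SOX core letters ATTGTT and TTTGTT, searched on both strands, were in 10.7% and 20.2% of all windows and in 0 of these 11, including that of *Dlk1* (chr12:109452573-109452872). The *Dlk1* window lies inside the span of the gene given above, so the sequence at and before the outer end of that span was not searched. The nuclear receptor half-site AGGTCA was in 16.3% of all windows and in 1 of the 11, a second window of *Meg3* (chr12:109545148-109545447), on the reverse strand. A match or its absence describes only these letters in these windows.

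*Rian* (chr12:109603945-109661716, plus strand), the host of a cluster of small nucleolar RNAs, varied little. It measured 858, 874 and 887 CPM in *Sox2* controls and 897, 824 and 859 CPM in *Sox2* mutants. Controls of the *Nr2f1* line held 889, 924 and 854 CPM and mutants 844, 913 and 854 CPM. The coefficient of variation within a group was between 1.7% and 4.3%, and mutants and controls overlapped.

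The log2 fold change of *Rian* was -0.02 in *Sox2* mutants and -0.03 in *Nr2f1* mutants (FDR 0.847 and 0.772). The 95% intervals were -11.1% to 9.16% and -9.98% to 6.41% of the control level, so that a fall of *Rian* by more than 11.1%, or a rise of more than 9.16%, lay outside the interval in both lines.

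*Mirg* (chr12:109734981-109749458, plus strand), a maternal RNA within the microRNA cluster, measured 17.9, 17.6 and 21.7 CPM in *Sox2* controls and 24.6, 20.05 and 23.3 CPM in *Sox2* mutants. In the *Nr2f1* line it measured 19.3, 15.3 and 17.5 CPM in controls and 15.9, 19.4 and 17.6 CPM in mutants. The groups overlapped in both lines. Its log2 fold change was 0.25 (95% interval -0.01 to 0.50, FDR 0.158) in *Sox2* mutants and 0.02 (-0.22 to 0.27, FDR 0.914) in *Nr2f1* mutants.

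The microRNAs of the maternal RNAs are shown because they connect both sides of the locus: some lie antisense to *Rtl1* and are fully complementary to its mRNA. RefSeq places 105 mature microRNAs by name on the plus strand between the starts of *Meg3* and *Dio3*, with 97 different seeds (bases 2 to 8), and the whole complement of 11 of them was found in the longest *Rtl1* transcript of 6358 bases. The first 4 below are of this kind, from 4 hairpins inside *Rtl1*; the last 2, from between *Rian* and *Mirg*, are without such a match and share a seed. Capitals mark the seed, and coordinates refer to GRCm38.p6.
mmu-miR-431-5p, chr12:109590459-109590479: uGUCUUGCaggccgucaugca
mmu-miR-433-3p, chr12:109591781-109591802: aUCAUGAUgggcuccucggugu
mmu-miR-127-3p, chr12:109592888-109592909: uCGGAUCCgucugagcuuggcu
mmu-miR-136-5p, chr12:109595331-109595352: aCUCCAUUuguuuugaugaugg
mmu-miR-379-3p, chr12:109709102-109709123: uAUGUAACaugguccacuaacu
mmu-miR-411-3p, chr12:109710225-109710246: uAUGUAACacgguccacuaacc
The libraries were made to capture messenger RNA, and these microRNAs were not measured by them. Of the 61 microRNA rows in the locus, 58 were at 0 in all 12 libraries, and the highest value of the other 3 was 2.94 counts in a library. All 7 rows of small nucleolar RNAs were at 0 in all 12 libraries.

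Ratios between locus RNAs were then computed in each library, since a ratio does not depend on the scaling of libraries. *Rian* and *Meg3* are read from the same strand of the same chromosome. The ratio of *Rian* to *Meg3* was 0.316 ± 0.0293 in controls and 0.267 ± 0.0228 in mutants of the *Sox2* line (mean ± SD, n = 3), a difference of -0.25 on the log2 scale (exact two-sided permutation test, p = 0.2). In the *Nr2f1* line it was 0.301 ± 0.0296 in controls and 0.263 ± 0.0247 in mutants, a difference of -0.20 (exact two-sided permutation test, p = 0.2). Mutants and controls overlapped in both lines.

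The ratio of *Meg3* to *Rtl1*, a maternal to a paternal RNA, was chosen after the values were seen and is given with no test. It was 326, 318 and 310.3 in *Sox2* controls and 452, 417 and 467 in *Sox2* mutants. It was 345, 308 and 323 in *Nr2f1* controls and 468, 536 and 519 in *Nr2f1* mutants. The 6 control values therefore lay together below all 6 mutant values. *Rtl1* alone already lay below controls in all mutants of each line, as did 18.9% (*Sox2*) and 14.3% (*Nr2f1*) of all genes. How often ratios of other gene pairs separate was not computed. Reads of *Rtl1* and of the RNA antisense to it cannot be told apart here either. The ratio of *Meg3* to *Dlk1*, which the choice of *Dlk1* fixes in direction, was 25.6 to 39.1 in the 6 controls, 60.8 to 103 in *Sox2* mutants and 127 to 148 in *Nr2f1* mutants.

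**Figure D3:**
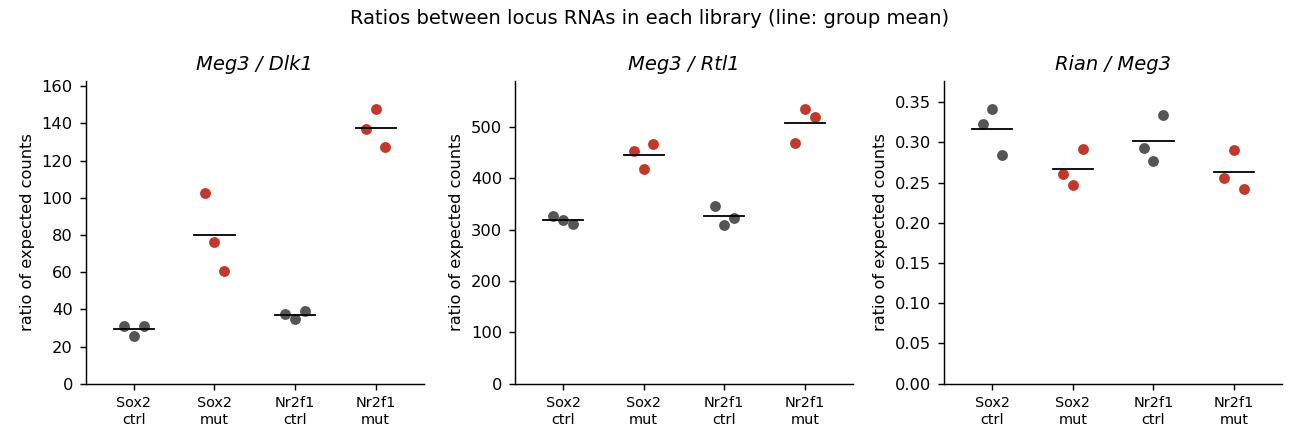
Ratios of expected counts in each library (y axes from 0), with controls in grey, mutants in red and the group mean as a line. *Meg3* to *Rtl1*, a ratio chosen after the values were seen, was 308 to 345 in controls and 417 to 536 in mutants, while the groups overlapped for *Rian* to *Meg3*.

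Whether the neighbours changed differently in *Sox2* and *Nr2f1* mutants was examined with a line-by-genotype term, fitted by edgeR over the 12 libraries. None of the 6 passed at FDR<0.01, 0 had an unadjusted p under 0.05 and DESeq2 called 0, beside 1.44% of 15989 genes called and 16.2% with an unadjusted p under 0.05. Subtracting the *Nr2f1* change from the *Sox2* change gave 0.03 for *Begain* (FDR 0.938), 0.07 for *Meg3* (FDR 0.887), 0.23 for *Rtl1* (FDR 0.676), 0.02 for *Rian* (FDR 0.953), 0.23 for *Mirg* (FDR 0.583) and 0.74 for *Dio3* (FDR 0.479), all on the log2 scale. A difference between the lines was not shown for any of them, and that of *Dio3* has the weakest counts behind it.

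Likeness to *Dlk1* was measured as the root mean square (RMS) difference of log2 CPM over the 12 libraries, each gene centred on its own mean, among 11596 genes with a mean of at least 5 CPM. The nearest profiles were those of *Itga9*, an integrin subunit (0.318), *Rasd1*, a Ras-related protein (0.343), *Hr*, a corepressor that binds the thyroid hormone receptor (0.344), *Zmat4*, a zinc finger protein (0.352), and *Pex5l*, a regulator of HCN channels (0.358), beside a median of 0.811 over all genes. None of these lies in the locus. *Rtl1* ranked 151st (0.631) and *Begain* 370th (0.689), whereas *Rian* ranked 4850th, *Mirg* 8183rd and *Meg3* 9693rd, and *Dio3* was below the minimum level. *Dlk1* was chosen for its decrease in these same 12 libraries. The ranks of its neighbours therefore reflect the changes already given and are no separate result. All 5 nearest genes are lower in mutants of both lines, by -0.74 to -1.51 in *Sox2* and -1.21 to -1.65 in *Nr2f1* mutants (log2), as the choice by likeness to *Dlk1* makes them.

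To see the locus in its surroundings, the genes from 1 Mb before *Begain* to 1 Mb beyond *Dio3* were examined, members left out: 103 rows, of which 30 passed the filter. The 103 include the 61 microRNA and 7 small nucleolar RNA rows of the locus. The 30 include *6430411K18Rik* and *Dio3os*, which lie inside the locus, and all 30 are termed flanking for short. In *Sox2* mutants 3 of 30 were downregulated and none upregulated (10%, beside 8.08% of all genes), and the median log2 fold change of the 30 was -0.11, beside 0.00 over all genes. The 3 lie together on the far side of *Begain*: *Hhipl1* (8.93 to 4.53 CPM, log2 fold change -0.98, FDR 0.00108), *Cyp46a1*, the cholesterol 24-hydroxylase of neurons (71.4 to 51.7 CPM, -0.47, FDR 0.00179), and *Ccdc85c* (37.7 to 28.4 CPM, -0.41, FDR 0.00636). The call of *Cyp46a1* was lost without MUT_1 or MUT_4, and that of *Ccdc85c* when any library of the line but CTRL_3 was left out.

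In *Nr2f1* mutants 1 of 30 flanking genes was called (3.33%, beside 2.54%; median log2 fold change -0.07, beside 0.01 over all genes). This was *Amn*, the amnionless protein gene of the vitamin B12 receptor, upregulated from 3.24 to 7.69 CPM (log2 fold change 1.24, FDR 0.00381). Its call was lost without CTRL_B, CTRL_E or MUT_A. Between *Begain* and *Dio3* only *Dlk1* moved by more than 0.5 on the log2 scale in both lines, apart from *Dio3os*, the weak antisense neighbour of *Dio3* at 4 to 23 counts per library, with 1.02 (FDR 0.248) and 0.52 (FDR 0.509).

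**Figure D4:**
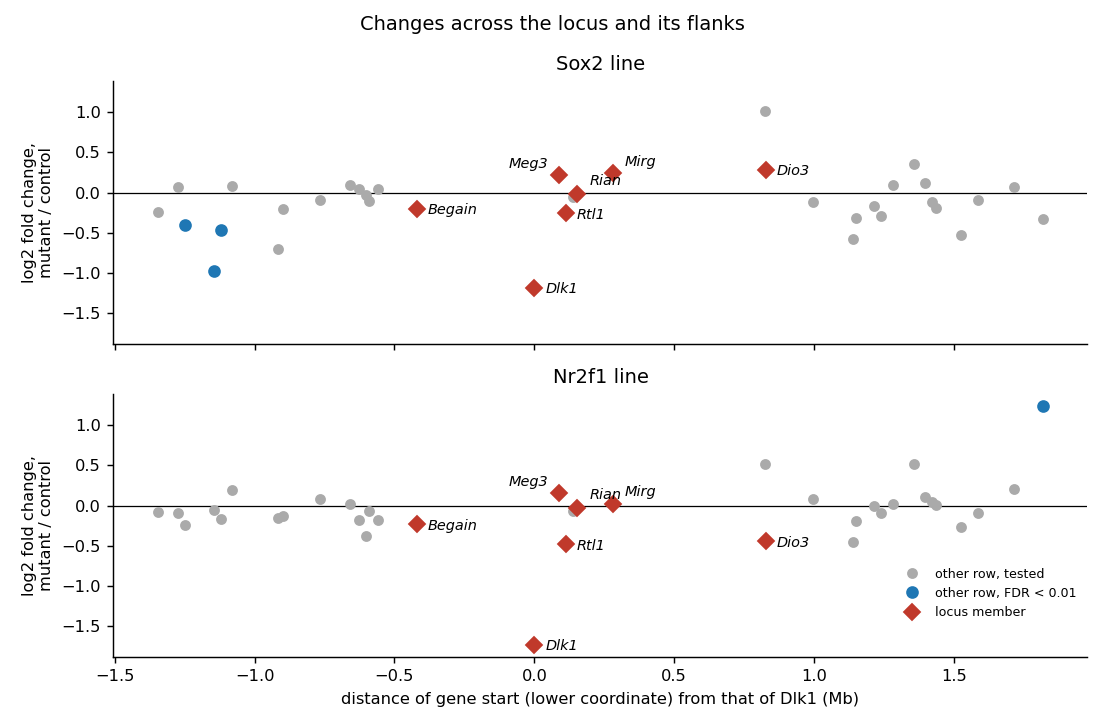
Log2 fold change of each tested gene of the locus and its 1 Mb flanks against its distance from *Dlk1* (Mb, by lower coordinate), with the *Sox2* line above and the *Nr2f1* line below. Red diamonds are the 7 locus genes, blue points other genes called at FDR<0.01 and grey points the rest. *Dlk1*, which was chosen for its decrease, stood lowest in both lines, at -1.19 and -1.73.

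Of 59 imprinted genes of other loci, 58 were in the tables. In *Sox2* mutants 4 of 53 tested were called (7.55%, beside 8.08% of all genes), with a median log2 fold change of 0.09. *Plagl1*, a zinc finger factor of an imprinted network that has been linked to *Dlk1* (18.5 to 30.3 CPM, 0.71, FDR 5.08e-04), *Peg10*, like *Rtl1* a retrotransposon-derived gene (24.9 to 42.1 CPM, 0.75, FDR 0.00132), and *Impact* (0.44, FDR 0.00403) were upregulated, and the non-coding RNA *Peg13* was downregulated (582 to 362 CPM, -0.69, FDR 0.00102). The call of *Impact* was lost without CTRL_1, CTRL_2, MUT_1 or MUT_4.

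In *Nr2f1* mutants 3 of 54 imprinted genes were called (5.56%, beside 2.54%), with a median of 0.08. *Plagl1* (15.1 to 32.2 CPM, 1.09, FDR 0.00853) and *Rasgrf1*, a Ras exchange factor (43.1 to 70.0 CPM, 0.70, FDR 0.00795), were upregulated. *Cdkn1c*, a cell cycle inhibitor, was downregulated (135 to 103 CPM, -0.40, FDR 0.00526). The calls of *Plagl1* and *Cdkn1c* were lost when any library but MUT_B was left out, that of *Cdkn1c* was also lost in a single fit over all 12 libraries (log2 fold change -0.40, FDR 0.0284), and *Rasgrf1* was lost without CTRL_B, CTRL_D, MUT_A or MUT_C. Calls over all genes moved too, so these losses are not particular to the 3 genes. All libraries together gave 396 calls, omission of any library but MUT_B gave 133 to 226, and omission of MUT_B gave 868. Without MUT_B 9 of the list were called, without CTRL_E 1, and without any of the other 4 libraries 0.

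The partners of *Dlk1* were taken as 19 Notch ligands, receptors, targets and relatives. In *Sox2* mutants 2 of 19 were upregulated and none downregulated (10.5%, beside 8.08%; median log2 fold change 0.26): *Notch1*, a receptor (143 to 198 CPM, 0.47, FDR 0.00614), and *Hey1*, a Notch target (22.8 to 37.1 CPM, 0.70, FDR 0.00581). Both calls were lost without CTRL_1, CTRL_2, MUT_3 or MUT_4, and 6 of 19 passed without CTRL_3. Over all genes, 2161 of 15811 were called without CTRL_3, beside 1261 of 15602 with all libraries. At an unadjusted p under 0.05 there were 10 of 19, beside 35% of all genes. In the same libraries the 6 astrocyte and radial glia markers summed to 1591 to 1966 CPM in controls and 2480.0 to 2859 CPM in mutants, whose part in the change was not tested. In *Nr2f1* mutants 0 of 19 were called with edgeR, 4 had an unadjusted p under 0.05 (beside 24.6% of all genes), DESeq2 called 2, and 3 passed without MUT_B. Over all genes, edgeR called 396 of 15600, DESeq2 called 1112 of 15600, and edgeR without MUT_B called 868 of 15770.

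The pathway of *Dio3* was taken as 23 genes of thyroid hormone transport, conversion, reception and response. In *Sox2* mutants 6 of 22 tested were called, 4 up and 2 down (27.3%, beside 8.08%; median log2 fold change 0.23), and in *Nr2f1* mutants 3 of 22, 2 up and 1 down (13.6%, beside 2.54%; median 0.01). *Hr*, also among the profiles nearest to *Dlk1*, was downregulated in both, from 43.3 to 18.8 CPM (-1.20, FDR 1.22e-04) and from 38.1 to 14.2 CPM (-1.42, FDR 0.00338). Upregulated in both were *Mbp*, a myelin protein gene that thyroid hormone is known to raise (0.80, FDR 0.00787, and 0.87, FDR 1.85e-04), and *Rxrg*, a retinoid X receptor (0.48, FDR 0.00349, and 0.58, FDR 0.00195). The part of thyroid hormone in these changes was not tested.

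In the *Sox2* line the count of called thyroid genes fell to 3 without CTRL_1 or MUT_1 and to 2 without CTRL_2 or MUT_4, with *Mbp* lost when any of these 4 was left out and *Rxrg* without CTRL_1, CTRL_2, MUT_3 or MUT_4. In the *Nr2f1* line it fell to 1 without CTRL_B, CTRL_E or MUT_A, where *Rxrg* was lost too, and *Hr* was lost when any library but MUT_B was left out. *Mbp* is also a marker of the oligodendrocyte lineage, whose 6 markers summed to 541 to 659.7 CPM in *Sox2* controls and 669.5 to 770.1 CPM in *Sox2* mutants, and to 465 to 478 CPM in *Nr2f1* controls and 499 to 535 CPM in *Nr2f1* mutants; their part in the change of *Mbp* was not tested.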

How the data were processed

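RNA-seq of 12 libraries (4 groups of 3, each a pool of 3 animals) was analysed. Per the paper's methods, the authors mapped reads with STAR against the mouse RefSeq transcriptome and computed expected counts per gene with RSEM; these deposited expected counts are not normalized, 7.77% of the values were not whole, and all were rounded here. The submitters' processing notes name mm10. RSEM shares reads among overlapping transcripts, which could affect *Meg3*, *Rian* and *Rtl1*. Columns were assigned to groups by their names, and no columns were left out; library names are those of the columns.

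Counts were tested with edgeR 4.0.16 in R 4.3.3 (filterByExpr with a minimum count of 10 and a minimum total of 15, TMM, quasi-likelihood F-test), mutants against controls of their own line, with Benjamini-Hochberg adjustment over all genes tested (FDR) and calls at FDR<0.01, the study's threshold; "downregulated" and "upregulated" are used only of called genes. The paper, which names the same test and threshold, reports more differentially expressed genes in each line than were called here. P-values measure the spread between pools. Intervals are at 95%. DESeq2 1.42.0 was an alternative. Levels are CPM after TMM scaling; positions, promoters and microRNAs are from RefSeq GRCm38.p6, strands and transcript lengths from GENCODE. The code was tested on simulated data.

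The members and lists were chosen with earlier results of these data known. Named were all 7 members, of each list at most 4 called genes with the smallest p and all called genes of counts of 5 or fewer, and the 5 profiles nearest to that of *Dlk1*; a gene that meets this rule is not reported here. Dio3os and 6430411K18Rik were named for their position after their values were seen.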

Additional observations from a re-analysis of the deposited data

Results flagged for a closer look

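*Amn*, in the flank beyond *Dio3*, differed in its response between the lines: subtracting its *Nr2f1* change from its *Sox2* change gave -1.57 on the log2 scale (SE 0.25), a difference that was itself tested by a line-by-genotype term (edgeR, FDR 0.00317). It measured 4.30, 4.28 and 3.16 CPM in *Sox2* controls and 3.34, 3.09 and 2.90 CPM in *Sox2* mutants. In the *Nr2f1* line it measured 2.55, 3.87 and 3.31 CPM in controls and 8.91, 7.69 and 6.47 CPM in mutants, so that all 3 *Nr2f1* mutants stood above the other 9 libraries. The FDR of the difference lay between 0.00158 and 0.0138 when libraries were left out in turn. *Amn* is a low-count gene, with 107 to 355 counts per library.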

How the results depend on the processing

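Alternatives changed the filter, the scaling, the test, the libraries fitted together or the libraries left out. At FDR<0.01 the count of *Dlk1* neighbours called stayed at 0 in all of them, except for 1 (*Meg3*, 0.32) in the *Sox2* line without CTRL_3 (range 0 to 1). At FDR<0.05, with the other settings as in the report, it was 0 too; FDR values between 0.01 and 0.05 arose for *Rtl1* in the *Nr2f1* line with DESeq2 (0.0197) and the likelihood ratio test of edgeR (0.0252), for *Begain* in the *Nr2f1* line with DESeq2 (0.0404), and for *Mirg* in the *Sox2* line without CTRL_3 (0.0346). In the *Sox2* line 14 alternatives gave log2 fold changes of -0.24 to -0.13 for *Begain*, -0.33 to -0.14 for *Rtl1*, 0.16 to 0.32 for *Meg3*, -0.05 to 0.02 for *Rian*, 0.17 to 0.36 for *Mirg* and 0.18 to 0.45 for *Dio3*. In the *Nr2f1* line 13 alternatives gave -0.28 to -0.14, -0.58 to -0.34, 0.06 to 0.25, -0.07 to -0.00, -0.06 to 0.10 and -0.75 to -0.15 in the same order, with FDR from 0.0197 to 0.174 for *Rtl1* and from 0.0404 to 0.305 for *Begain*. *Dlk1* lay between -1.30 and -1.04 and between -1.87 and -1.59. The values for each gene of the interaction and of the lists under these alternatives were added after seeing the data. Of the 6 interaction values, those of *Begain*, *Meg3* and *Rian* changed sign in some alternatives, with an FDR of at least 0.527.

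With DESeq2 the *Sox2* line had 6 flanking, 10 other imprinted and 8 Notch-related genes called, and the *Nr2f1* line 3 flanking, 7 imprinted, 5 thyroid and 2 Notch-related genes. With 0.5 Mb flanks 0 genes were called in either line, and without the filter 4 Notch-related genes in the *Sox2* line. Leaving out libraries gave 1 to 4 flanking, 3 to 8 imprinted, 2 to 6 thyroid and 0 to 6 Notch-related genes in the *Sox2* line, and 0 to 1, 0 to 9, 1 to 4 and 0 to 3 in the *Nr2f1* line. The ratio of *Rian* to *Meg3* differed by -0.32 to -0.19 and -0.27 to -0.12 (log2). Over all genes, calls ranged from 494 (without CTRL_2) to 2161 (without CTRL_3) in the *Sox2* line and from 133 (without MUT_A) to 868 (without MUT_B) in the *Nr2f1* line, and were 2468 and 1112 with DESeq2; with upper quartile scaling 43.0% of *Sox2* calls were downregulated, beside 51.8%.

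The replicate block could be fitted for the numbers 1 and 3 shared by columns of the *Sox2* line, whose deviations from the group means correlated at 0.177 and 0.157. No source says that they pair the pools. With the block, 0 neighbours, 4 flanking, 9 other imprinted, 8 thyroid and 6 Notch-related genes were called in the *Sox2* line, and 0 neighbours in the interaction. For the *Nr2f1* line no paired analysis was possible because its mutant and control columns share only 1 letter.

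*Dio3* at 19 to 57 counts per library is the member whose change depth limits most, and the cause of the other shifts was not tested.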
